A study of Mus musculus with 4 samples.

Results

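The genes of macrophages and monocytes were followed by state in whole mammary fat pad (MFP) of aged and young mice. The set holds 45 of the 55487 genes counted, each taken by its symbol, and each of the 45 symbols stood on a single row. They were placed in 6 states, with 18 general macrophage genes, 10 resident perivascular genes, 5 lipid-associated genes, 5 monocyte genes, 5 genes of alternative activation and 2 of inflammatory activation. Total RNA depleted of ribosomal RNA was sequenced from 4 libraries, 2 of aged MFP (14 months) and 2 of young MFP (8 weeks), all from female C57BL/6J mice with no allele or treatment named, and each labelled a biological replicate. The pads were chopped and lysed whole, so macrophage RNA was read together with that of fat, muscle, epithelium and lymphoid cells. In such bulk tissue, fewer cells of a type and less RNA per cell cannot be told apart. Library totals ran from 68803304 to 98402403 counts, and levels are given as CPM, the counts relative to the library total after TMM scaling.

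Adipose tissue holds resident macrophages that sit along blood vessels, take up debris and carry scavenger receptors such as the mannose receptor Mrc1 and the haemoglobin receptor Cd163. Monocytes enter from blood through the chemokine receptor Ccr2 and can become macrophages that ring dying adipocytes, where the lipid sensor Trem2, the membrane glycoprotein Gpnmb and the lysosomal lipase Lipa are raised. Interleukin 4 drives an alternative program marked in mice by Arg1, Retnla, Chil3 and the lectin Mgl2, while Nos2 and Clec4e belong to the response to microbial products. Growth and survival of the lineage depend on the receptor Csf1r and its ligand Csf1.

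The transcription factor PU.1, needed for macrophage identity, binds a purine-rich core. The promoters below show where the letters AGGAAGT of this core lie in Gpnmb, Mgl2, Mrc1 and Lyz2. Each line gives the 200 bases that end 50 bases before the RefSeq start of the gene (GRCm38.p6), read along the gene's strand, and capitals mark AGGAAGT or its reverse complement. Gpnmb, Mgl2 and the main resident receptor Mrc1 had both aged libraries above both young ones. Lyz2 is shown as a gene highest in young replicate 1. In that order the windows lie at chr6:49036268-49036467 (plus), chr11:70130107-70130306 (plus), chr2:14229164-14229363 (plus) and chr10:117282323-117282522 (minus).
Gpnmb: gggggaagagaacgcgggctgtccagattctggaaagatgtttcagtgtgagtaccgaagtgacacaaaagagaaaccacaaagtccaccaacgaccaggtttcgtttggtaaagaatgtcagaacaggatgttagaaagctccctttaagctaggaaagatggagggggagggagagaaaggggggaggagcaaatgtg
Mgl2: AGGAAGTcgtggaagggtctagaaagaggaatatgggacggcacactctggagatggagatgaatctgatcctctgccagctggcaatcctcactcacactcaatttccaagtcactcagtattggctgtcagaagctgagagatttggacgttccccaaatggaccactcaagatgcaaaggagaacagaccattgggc
Mrc1: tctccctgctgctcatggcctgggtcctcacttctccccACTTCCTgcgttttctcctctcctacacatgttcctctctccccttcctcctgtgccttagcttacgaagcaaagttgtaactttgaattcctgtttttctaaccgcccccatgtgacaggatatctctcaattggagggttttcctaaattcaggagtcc
Lyz2: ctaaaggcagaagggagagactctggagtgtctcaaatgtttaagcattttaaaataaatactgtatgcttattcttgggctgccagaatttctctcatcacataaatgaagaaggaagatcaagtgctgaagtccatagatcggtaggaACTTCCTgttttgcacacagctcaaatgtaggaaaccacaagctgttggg
Counted from the gene start, the match began at -250 in Mgl2, -211 in Mrc1 and -100 in Lyz2, and the Gpnmb window held none. A promoter was listed for 34 of the 45 members, and 9 of these 34 genes (26.5%) held the letters on either strand, against 5.66% of all 32851 promoter windows of this length. The AP-1 letters TGANTCA were in windows of 3 of the 34 members, against 5.57% of all windows, and the E-box CACGTG in 0, against 4.34%. A member gene counted if any of its listed windows matched, while the shares of all windows are of single windows, so the units differ. These matches describe letters only and no binding was measured.

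The comparison asked how macrophage RNA of the MFP differed with age. The quasi-likelihood test of edgeR called 0 members at an adjusted p of 0.05, where 0% of all 22485 genes tested were called, so no state can be said to have changed by that test. At an unadjusted p under 0.05, 7 of the 44 members tested were on the aged side, beside 1627 of the 22485 genes (7.24%). On the young side were 0 members, beside 744 genes (3.31%). The members were chosen with earlier results of these data known. DESeq2, the method named by the study, called 4 members higher in aged MFP, namely Gpnmb, Maf, Mgl2 and Arg1. It gave an adjusted p to 43 of the 45 members, so these 4 calls are out of 43, with 0 members lower. Among the 22385 genes with an adjusted p it called 710 (3.17%) higher and 155 (0.692%) lower. Both aged libraries stood above both young ones for 17 of the 44 members (38.6%), beside 23.3% of all genes, and both young above both aged for 1 member (2.27%), Plac8, beside 22.8% of all genes. The median log2 fold change over the 44 members was 0.29 in aged over young MFP, with 30 positive and 14 negative values, where all genes tested had a median of -0.04. Vsig4, an immunoglobulin-family receptor of tissue macrophages, had 1 to 4 counts per library and was not tested.

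Young replicate 1 stood apart from the other libraries in its lymphocyte RNA. The 6 B cell markers summed to 498.6 CPM there, against 4.59, 56.7 and 2.83 CPM in aged replicates 1 and 2 and young replicate 2. The 6 T cell markers summed to 600.0 CPM against 10.1, 46.4 and 4.46 CPM, and the 6 pan-leukocyte markers to 1972 CPM against 155, 336 and 125 CPM. All 18 of these markers were highest in young replicate 1, none was at 0 in all libraries, and aged replicate 2 was the next highest by each sum. The 6 dendritic cell markers summed to 190.0 CPM in young replicate 1 and to between 32.9 and 40.3 CPM in the other libraries, with the chemokine receptor Ccr7 at 105 CPM against at most 3.03 CPM. Neutrophil markers were low in every library, summing to between 3.17 and 5.30 CPM. The part of these cells in the members' values was not tested, and the main fold changes of members are therefore given with those without young replicate 1. In that fit the median log2 fold changes of the B cell, T cell and pan-leukocyte markers were 3.17, 2.85 and 1.07, with all 6 of each list positive. Over the 4 libraries they were -2.88, -3.43 and -2.41, so leaving that library out reverses the difference in these markers and does not remove it. Tissue markers also differed in level between the ages. The 8 skeletal muscle markers summed to 36850 and 57670 CPM in aged and 9477 and 13210 CPM in young MFP. The 6 adipocyte markers summed to 6573 and 4800 against 4208 and 4135 CPM. All markers of both lists had both aged libraries above both young ones, beside 23.3% of all genes. The gap between aged replicate 2 and young replicate 2 was narrow for Plin1 (1019 and 1007 CPM) and Cidec (541.2 and 539.9 CPM). The 6 mammary epithelial markers summed to 1013 and 982.9 CPM in aged and 581.9 and 1227 CPM in young MFP, where the young libraries lay on either side.

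**Figure D1:**
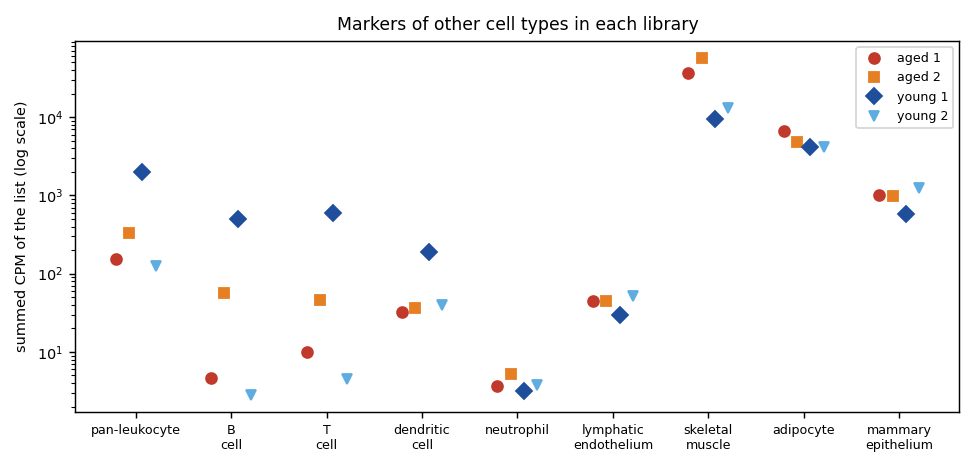
Summed CPM (log scale) of 9 marker lists of other cell types in each of the 4 libraries, 1 point per library. Young replicate 1 lies above the other libraries for pan-leukocyte, B cell, T cell and dendritic cell markers, and both aged libraries lie above both young ones for skeletal muscle and adipocyte markers.

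The members split by their level in that library. Among the 44 tested, 12 (27.3%) were highest in young replicate 1, beside 34.1% of all genes, and 24 (54.5%) were lowest there, beside 33.8%. The monocyte genes were on the first side, with 4 of 5 highest in young replicate 1. The resident genes were on the other, with 7 of 9 lowest there, as were 4 of the 5 lipid-associated and 4 of the 5 alternative activation genes. Without young replicate 1, 32 members had a positive and 12 a negative log2 fold change, with a median of 0.38, while all genes had a median of 0.02. DESeq2 without this library again called 4 members higher, Gpnmb, Maf, Arg1 and Cd68, beside 2.93% of all genes higher and 0.848% lower.

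**Figure D2:**
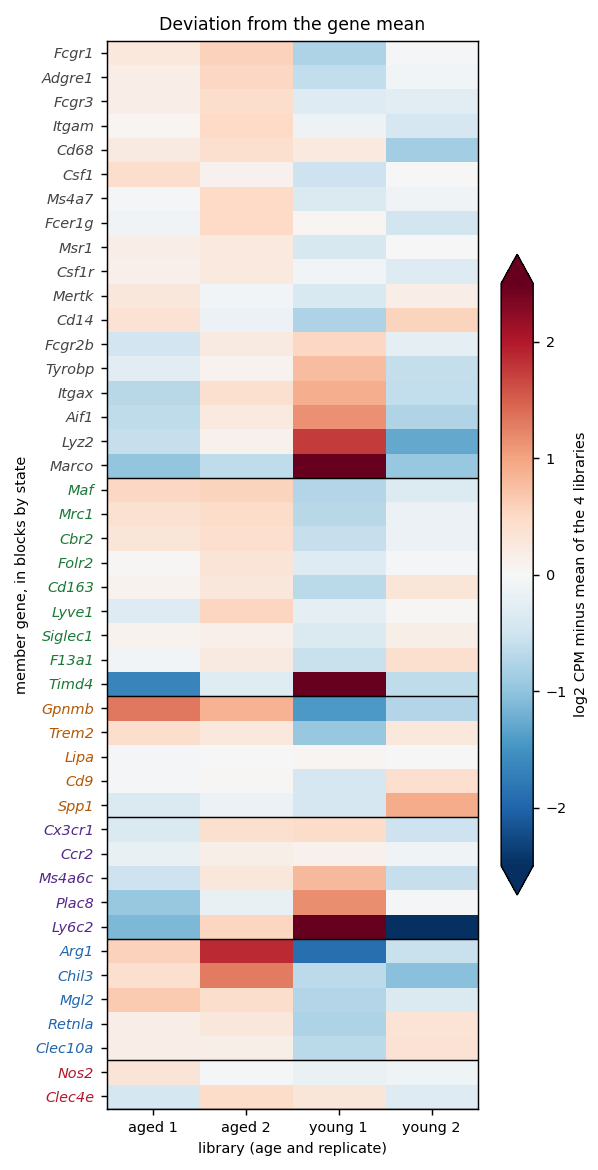
Log2 CPM of each of the 44 tested members minus its mean over the 4 libraries, in blocks by state (from the top: general, resident perivascular, lipid-associated, monocyte, alternative and inflammatory activation), red above and blue below the mean. Marco, Timd4 and Ly6c2 are darkest red in young replicate 1, where most resident, lipid-associated and alternative genes are blue.

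Among the general genes, the lineage receptor Csf1r and its ligand, Adgre1 and 2 of the 4 Fc receptor genes, Fcgr1 and Fcgr3, were higher in both aged libraries, without passing the test. Csf1r was at 66.3 and 71.7 CPM in aged and 58.0 and 48.7 CPM in young MFP. The aged to young difference on the log2 scale was 0.37 (standard error 0.15, adjusted p = 0.501 from edgeR), and 0.50 without young replicate 1. The level of its ligand Csf1, also made by stromal cells, was 77.2 and 61.4 CPM in aged and 40.1 and 56.6 CPM in young MFP. Adgre1, which encodes the macrophage surface protein F4/80, had 1390 and 1945 counts in aged and 820 and 1073 counts in young MFP. The ages did not overlap for any of these 3 genes in CPM. The high-affinity Fc receptor Fcgr1 was at 2.71 and 3.36 CPM in aged and 1.31 and 2.18 CPM in young MFP (log2 fold change 0.80 ± 0.39 SE, edgeR adjusted p = 0.523), and the value was 0.48 without young replicate 1 and 1.23 without young replicate 2. Fcgr3, an activating Fc receptor, was at 7.94 and 9.66 CPM against 5.65 and 5.80 CPM. Itgam, Msr1 and Ms4a7 also had no overlap, so that 8 of the 18 general genes had both aged libraries above both young ones and 0 the reverse, beside 23.3% and 22.8% of all genes. Cd68, a lysosomal glycoprotein of macrophages, was at 13.6 and 15.5 CPM in aged MFP and at 13.9 and 6.34 CPM in young MFP, where young replicate 1 matched the aged libraries. On the log2 scale aged exceeded young MFP by 0.52 (adjusted p = 0.628 from edgeR) and 1.20 without young replicate 1, where DESeq2 gave an adjusted p of 0.00998. Over all fits of Cd68 the adjusted p ran from 0.00998 to 0.976.

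The general genes highest in young replicate 1 were Lyz2, Marco, Aif1, Tyrobp, Itgax and Fcgr2b. Lyz2, the lysozyme of macrophages (chromosome 10 of GRCm38, 117277331 to 117282321), was at 374.5 CPM there, against 73.9 and 119 CPM in aged MFP and 45.9 CPM in young replicate 2. The fitted log2 fold change was -1.12 (standard error 1.02, adjusted p = 0.658 from edgeR) and turned to 1.07 without young replicate 1. Marco, a scavenger receptor of lymphoid and lung macrophages, had 186 counts in young replicate 1 and 14, 20 and 13 counts in aged replicates 1 and 2 and young replicate 2. Its level in young replicate 1 was 10.1 times that of the next library, the largest such ratio among the members, and its log2 fold change of -2.62 turned to 0.17 without that library. Aif1, a calcium-binding protein of macrophages, was at 8.70 CPM in young replicate 1 and between 2.34 and 4.71 CPM elsewhere. The signalling adaptor Tyrobp, shared with natural killer cells, was at 17.2 CPM there and between 6.56 and 10.6 CPM elsewhere. Another signalling adaptor, Fcer1g, was at 8.64 CPM in young replicate 1, inside the aged range of 7.94 to 11.9 CPM. Itgax and Fcgr2b, which dendritic cells and B cells also express, were at 19.6 and 19.5 CPM in young replicate 1. All 6 genes had a negative log2 fold change over the 4 libraries and a positive value without young replicate 1. They were picked for being highest in that library, so the upward shift without it follows from the choice. The endotoxin co-receptor Cd14 went the other way, lowest in young replicate 1 at 14.3 CPM and highest in young replicate 2 at 35.9 CPM. Mertk, a receptor for dying cells, was likewise lowest in young replicate 1, at 21.7 CPM.

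**Figure D3:**
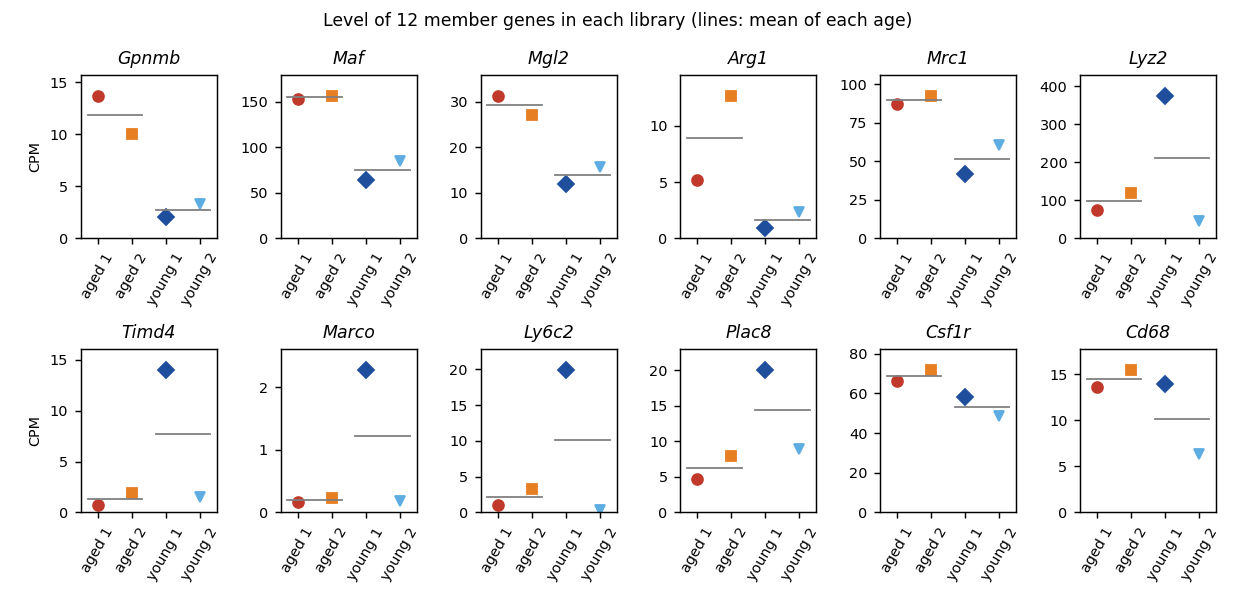
CPM of 12 members in each library, with grey lines at the mean of each age and axes that start at 0. Gpnmb, Maf, Mgl2, Arg1, Mrc1 and Csf1r have both aged libraries above both young ones, Lyz2, Timd4, Marco and Ly6c2 are set apart by young replicate 1, Plac8 has both young libraries above both aged ones, and Cd68 is lowest in young replicate 2.

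The resident perivascular genes were led by Maf among the positive differences. Maf, a transcription factor of resident macrophages that other cells also express, was at 153 and 156 CPM in aged and 64.3 and 84.3 CPM in young MFP. Its log2 fold change was 1.06 (standard error 0.18, adjusted p = 0.36 from edgeR and 0.00281 from DESeq2), and the 2 aged libraries lay closer together than the young ones. Maf lies on chromosome 8, 115682942 to 115707794, minus strand, where Gm15655 overlaps it on the other strand. Mrc1 was at 87.2 and 92.5 CPM in aged and 41.8 and 60.7 CPM in young MFP (log2 fold change 0.81 ± 0.22 SE, edgeR adjusted p = 0.418). Cbr2, a carbonyl reductase expressed by resident macrophages, was at 27.1 and 29.3 CPM in aged and 14.7 and 19.8 CPM in young MFP. Folr2, a folate receptor of the same cells, was at 7.06 and 8.67 against 5.54 and 6.71 CPM. These 4 of the 9 resident genes tested (44.4%) had both aged libraries above both young ones, beside 23.3% of all genes. Without young replicate 1 their log2 fold changes were 0.87, 0.57, 0.51 and 0.23. The remaining resident genes overlapped between the ages. Cd163 was at 36.0 and 41.0 CPM in aged and 21.3 and 41.6 CPM in young MFP, so that its young libraries spanned the aged values. Siglec1, a sialic acid receptor, and F13a1, the A chain of coagulation factor XIII, had the same order, with young replicate 1 lowest and young replicate 2 highest. Their log2 fold changes of 0.29 for Cd163, 0.19 for Siglec1 and 0.08 for F13a1 became -0.11, -0.03 and -0.32 without young replicate 1. Lyve1, shared with lymphatic vessels, was at 4.32 and 7.91 against 4.55 and 5.50 CPM. The 6 lymphatic endothelial markers, of which Ccl21a was at 0 in every library, summed to 45.4 and 44.3 CPM in aged and 29.6 and 52.3 CPM in young MFP. Timd4, a phosphatidylserine receptor of long-lived resident macrophages, did not follow the other resident genes. It had 1147 counts in young replicate 1 and 58, 165 and 108 in aged replicates 1 and 2 and young replicate 2. The aged to young difference on the log2 scale was -2.59 (standard error 1.23, adjusted p = 0.521 from edgeR) and -0.19 without young replicate 1. The median of the 9 resident genes tested was 0.29, with 0.15 without young replicate 1, 0.1961 without aged replicate 2, 0.4898 without aged replicate 1 and 0.6539 without young replicate 2.

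Among the 5 lipid-associated genes, only Gpnmb (20%) had both aged libraries above both young ones, beside 23.3% of all genes. Gpnmb (chromosome 6, 49036546 to 49070929, plus strand) was at 13.7 and 10.03 CPM in aged and 2.01 and 3.29 CPM in young MFP, or 1120 and 893 against 165 and 243 counts. On the log2 scale aged exceeded young MFP by 2.16 (standard error 0.37, adjusted p = 0.36 from edgeR and 1.99e-05 from DESeq2), and 1.85 without young replicate 1, where DESeq2 gave 0.000162. With each library left out in turn the value ran from 1.85 to 2.57. Trem2, the lipid sensor itself, was low in every library, at 1.44 and 1.27 CPM in aged and 0.54 and 1.27 CPM in young MFP. The fitted log2 fold change was 0.58 (standard error 0.53, adjusted p = 0.66 from edgeR) and 0.09 without young replicate 1. Spp1, the secreted phosphoprotein osteopontin, which epithelial cells also make, was at 1.32 and 1.55 CPM in aged and 1.28 and 3.27 CPM in young MFP (log2 fold change -0.66 ± 0.55 SE, edgeR adjusted p = 0.629), and the value was -1.19 without young replicate 1. The lysosomal acid lipase Lipa varied least of all members by its standard error of 0.12. Its levels were 59.95 and 62.75 CPM in aged and 64.6 and 62.2 CPM in young MFP, with a log2 fold change of -0.05, and of -0.02 without young replicate 1. Cd9, a tetraspanin of many cell types, was at 91.5 and 95.0 CPM in aged MFP, between 70.0 and 126 CPM in the young libraries, and its log2 fold change of -0.07 was -0.43 without young replicate 1. The 5 genes had a median of -0.05, and the higher Gpnmb was not matched by Trem2, Cd9, Spp1 or Lipa in these libraries.

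The ages overlapped for 4 of the 5 monocyte genes. Of all genes, 23.3% had both aged libraries above both young ones and 22.8% the reverse. Ccr2 was at 10.1 and 12.7 CPM in aged and 12.3 and 10.7 CPM in young MFP (log2 fold change -0.02 ± 0.23 SE, edgeR adjusted p = 0.973), and 0.08 without young replicate 1. Cx3cr1, the fractalkine receptor of patrolling monocytes and many macrophages, was at 3.63 and 6.22 against 6.49 and 3.28 CPM, and its log2 fold change of 0.01 was 0.59 without young replicate 1 and turned to -0.18 with scaling by total counts only. Ly6c2, the antigen that marks classical monocytes, which T cells and plasma cells can also carry, had 82 and 287 counts in aged and 1630 and 26 counts in young MFP. The 2 young libraries lay on either side of the aged ones, and the fitted difference (log2 fold change -2.26 ± 1.82 SE, edgeR adjusted p = 0.622) turned to 2.58 without young replicate 1. Plac8, expressed by monocytes and several lymphoid cells, was at 4.65 and 7.91 CPM in aged and 20.01 and 8.86 CPM in young MFP. It was the only member with both young libraries above both aged ones (log2 fold change -1.20 ± 0.52 SE, edgeR adjusted p = 0.504), and the value without young replicate 1 was -0.50. Ms4a6c, a membrane protein of monocytes, was at 4.15 and 7.31 against 10.55 and 3.98 CPM (log2 fold change -0.34 ± 0.59 SE, edgeR adjusted p = 0.821), and turned to 0.52 without young replicate 1. The median of the 5 monocyte genes was -0.34 and turned to 0.52 without young replicate 1.

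**Figure D4:**
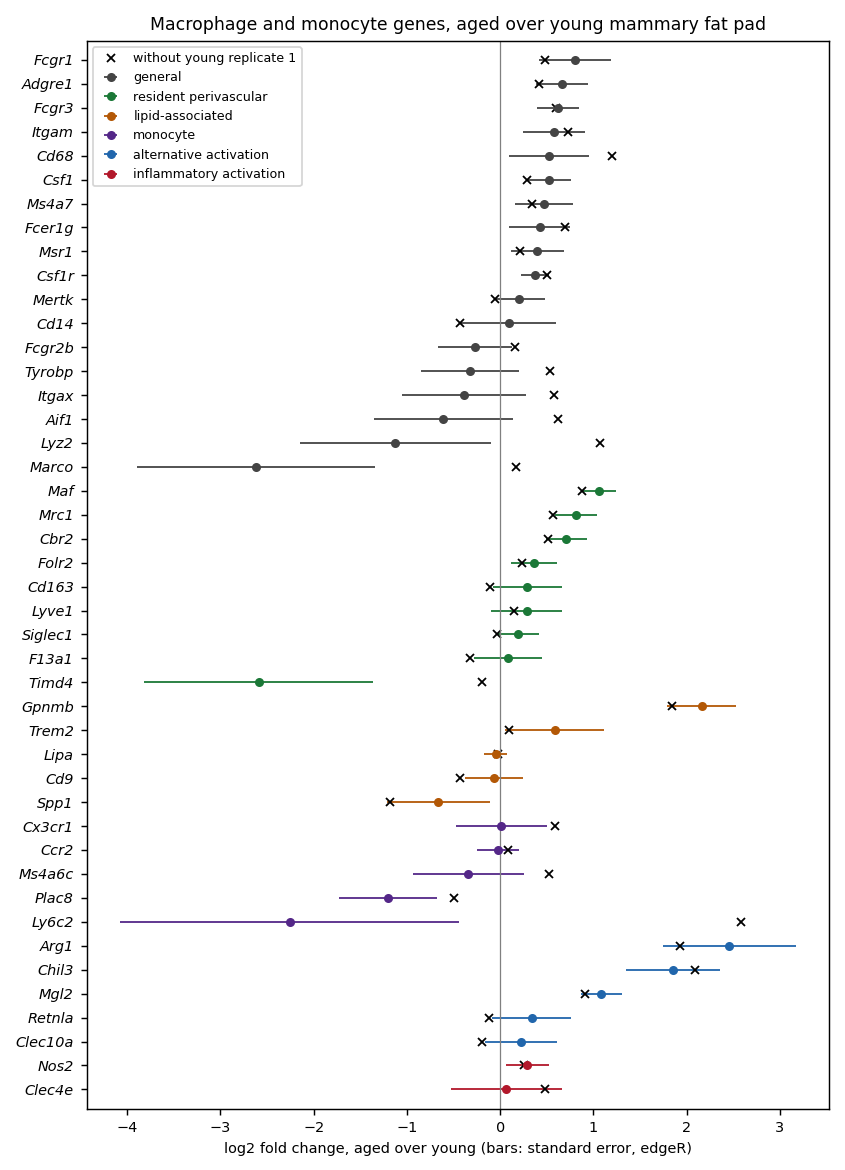
Log2 fold change of aged over young MFP for the 44 tested members with its standard error (edgeR, 2 libraries per age), coloured by state, and the value without young replicate 1 as a cross. Gpnmb and Arg1 lie above 1 with and without that library, while the crosses of Lyz2, Marco and Ly6c2 lie on the other side of 0.

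The alternative activation genes had the largest median of the states, 1.08, with all 5 values positive. That median is the value of Mgl2. Arg1, the enzyme that turns arginine into ornithine and urea (chromosome 10, 24915221 to 24927484, minus strand), was at 5.21 and 12.7 CPM in aged and 0.91 and 2.34 CPM in young MFP. Its log2 fold change was 2.46 (standard error 0.71, adjusted p = 0.431 from edgeR and 0.0125 from DESeq2), the largest of the positive values. It was 1.93 without young replicate 1 and ran from 1.68 without aged replicate 2, below the value of Gpnmb there (2.37), to 3.299 without young replicate 2. In CPM the aged libraries differed between themselves by more than the young ones, at 8.95 ± 5.29 CPM (SD, n = 2) against 1.63 ± 1.01 CPM (SD, n = 2). In log2 CPM the spread was similar, with 2.39 and 3.67 in aged and -0.09 and 1.24 in young MFP. Mgl2 (chromosome 11, 70130329 to 70137550, plus strand), a galactose-binding lectin of macrophages and dermal dendritic cells, was at 31.3 and 27.1 CPM in aged and 11.97 and 15.57 CPM in young MFP. The aged to young difference on the log2 scale was 1.08 (standard error 0.22, adjusted p = 0.376 from edgeR and 0.00555 from DESeq2), and 0.91 without young replicate 1, where the adjusted p from DESeq2 was 0.0557. Its neighbour and paralog Clec10a was at 22.3 and 22.0 CPM in aged MFP, between 12.5 and 25.4 CPM in the young libraries. Of the 50-base stretches of the longest transcripts, 16.5% of those of Mgl2 and 10.6% of those of Clec10a also occur in another gene, mainly in each other, so reads there are uncertain. Chil3, a chitinase-like protein, was low, with 46 and 94 counts in aged and 21 and 14 counts in young MFP (log2 fold change 1.85 ± 0.50 SE, edgeR adjusted p = 0.418), and 2.08 without young replicate 1. It shares 29.4% of its stretches with other genes, mainly Chil4, which had 0 to 5 counts. Retnla, a secreted protein induced by interleukin 4 that adipose tissue expresses, was at 15.9 and 17.4 against 8.29 and 18.0 CPM. The log2 fold changes of 0.23 for Clec10a and 0.34 for Retnla turned to -0.20 and -0.12 without young replicate 1, so that 3 of the 5 values stayed positive, with a median of 0.91.

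The adjusted p of the 4 genes that DESeq2 called ranged from 0.0627 to 0.976 for Gpnmb, 0.0648 to 0.976 for Maf, 0.0678 to 0.976 for Mgl2 and 0.0924 to 0.976 for Arg1 over the edgeR fits, none of which called them. Skeletal muscle and adipocyte markers were higher in the same 2 libraries as these genes, and their part in the values was not tested.

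Of the inflammatory activation genes, Nos2, the inducible nitric oxide synthase, was at 12.01 and 9.26 CPM in aged and 8.50 and 8.89 CPM in young MFP. On the log2 scale aged exceeded young MFP by 0.29 (standard error 0.23, adjusted p = 0.617 from edgeR) and by 0.26 without young replicate 1, and both aged libraries lay above both young ones. Clec4e, a receptor for mycobacterial glycolipid, had 7 and 16 counts in aged and 13 and 7 counts in young MFP (log2 fold change 0.07 ± 0.60 SE, edgeR adjusted p = 0.968), and 0.48 without young replicate 1.

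Per length of exons, Lyz2 had the highest mean of the members, 116.5 CPM per kb, with its highest level in young replicate 1. Its level was 56.1 and 90.4 CPM per kb in aged MFP, 284.6 in young replicate 1 and 34.9 in young replicate 2. Cd9, the next by its mean of 46.7 CPM per kb, was below Lyz2 in the first 3 of these libraries and above it in young replicate 2, at 61.5 CPM per kb. Retnla and Cbr2 followed by mean, at 24.9 and 17.1 CPM per kb. Csf1r and Mrc1, at 10.6 and 11.1 CPM per kb, stood far above Trem2, which at 0.229 CPM per kb came before Clec4e and Vsig4 alone. Gpnmb, at 1.11 CPM per kb over the 4 libraries, reached 2.10 and 1.54 in aged MFP against 0.309 and 0.505 in young MFP.

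Each state was also set against the general genes of the same library, as the mean log2 CPM of its tested members less that of the 18 general genes. For alternative activation this difference was -0.17 and -0.08 in aged and -1.80 and -0.55 in young MFP, with both aged libraries above both young ones. The 5 genes did not share this order. Arg1, Mgl2 and Chil3 had it, while Clec10a and Retnla were highest in young replicate 2. Chil3, with few counts, weighs as much as the others in the mean, at -0.77 and 0.11 log2 CPM in aged and -1.83 and -2.22 in young MFP. For the monocyte genes it was -1.28 and -0.73 in aged MFP, and 0.21 in young replicate 1 against -1.14 in young replicate 2. The resident genes stood at 1.17 and 1.22 in aged MFP, inside the young values of 0.79 and 1.46. The lipid-associated genes, at 0.25 and -0.12, were also inside the young values of -0.92 and 0.43. Inflammatory activation was at -2.98 and -3.04 in aged and -3.15 and -2.87 in young MFP. Young replicate 1 was at an end of the range in all 5 states, the highest for the monocyte genes and the lowest for the others, where its general genes include Lyz2 and Marco.

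**Figure D5:**
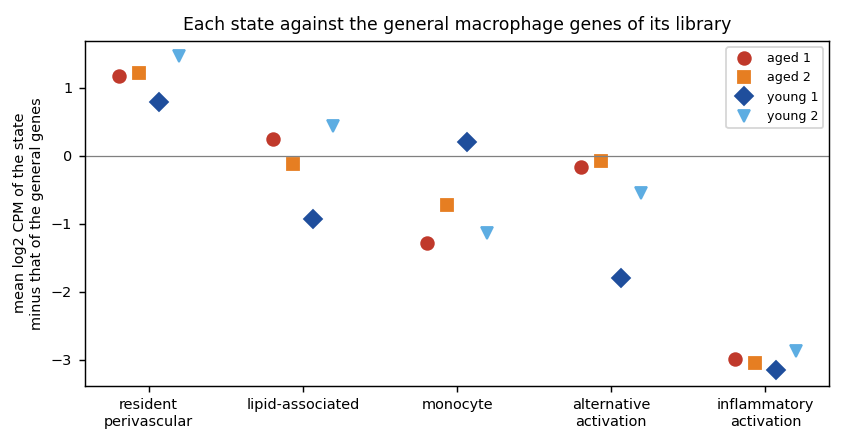
Mean log2 CPM of the members of each of 5 states minus that of the general macrophage genes, 1 point per library. Both aged libraries lie above both young ones for alternative activation, and the aged points fall between the young ones for the resident and lipid-associated genes.

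Other genes of the lineage were read from fixed lists, with 0 calls from edgeR and 0 from DESeq2 in either direction in each of the 4 lists, beside the shares of all genes given above. Of 12 further identity genes, 6 had positive and 6 negative values (median -0.16), and without young replicate 1 the values were positive for 11 (median 0.71). The largest changes there were Irf8 and Cd86, which B cells and dendritic cells also express. Irf8, a transcription factor of monocytes, was at 114 CPM in young replicate 1 and between 12.7 and 26.3 CPM elsewhere. Cd86, a co-stimulatory ligand, was at 18.3 CPM against 2.40 to 4.56 CPM. Of the 11 genes tested from the CSF1 and chemokine axis, 6 were positive and 5 negative, with 9 positive without young replicate 1. Ccl8, a chemokine made by resident macrophages, was at 1.82 and 8.55 CPM in aged and 1.22 and 0.921 CPM in young MFP (log2 fold change 2.27 ± 0.84 SE, edgeR adjusted p = 0.477), and 2.49 without young replicate 1. Ccl2, the main ligand of Ccr2, was at 0.587 and 1.10 CPM in aged and 1.95 and 2.09 CPM in young MFP, and Csf2 had 0 to 3 counts. Of 14 genes of TREM2 signalling and lipid handling, 8 were positive and 6 negative, with 11 positive without young replicate 1. The adaptor Hcst was at 11.6 CPM in young replicate 1 and at most 1.31 CPM elsewhere, and the kinase Syk at 121 CPM and at most 36.7 CPM. Of the 14 genes tested from alternative and inflammatory signalling, 5 were positive and 9 negative, with 13 positive without young replicate 1. Ptgs2, the inducible cyclooxygenase, was at 0.245 and 0.326 CPM in aged and 0.72 and 1.504 CPM in young MFP, and Tnf was at 9.33 CPM in young replicate 1 and at most 1.82 CPM elsewhere.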

How the data were processed

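Counts were deposited by the authors as whole numbers for each gene, 1 column per library, neither normalized nor pooled. The submitters' processing notes name featureCounts, R 3.6.1 and GRCm38 as the mouse build. The aligner, annotation release and strand setting are not given in the sources used here. The study's methods name DESeq2 for these libraries.

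The filterByExpr function kept 22485 genes. After TMM scaling, glmQLFit (legacy method) and glmQLFTest of edgeR 4.0.16 in R 4.3.3 were applied, with age as the only term and Benjamini-Hochberg adjustment over all genes at 0.05. The standard error was the size of the log2 fold change over the square root of F. DESeq2 1.42.0 was the alternative. Log2 CPM used a prior count of 2. The code was tested on simulated data. An exact permutation test of 2 against 2 cannot go below 0.333, so p-values rest on the spread estimated across genes.

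Levels and fold changes were given for the 3 largest changes and the 2 highest levels of each state. They were also given for genes called by either tool, and for further members beside them. From each list of related lineage genes the 2 largest changes were named, with Csf2 added after its values were seen. C1qa, C1qb and C1qc were named outside this rule, for their ratios. Of the marker lists for other cell types, Ccr7, Ccl21a, Plin1 and Cidec were named after their values were seen. The members, states and lists were chosen with earlier results of these data known. Alternatives were other scalings, filters, no muscle and mitochondrial genes, DESeq2, the replicate number as a block and each library left out. A crossed block and DESeq2 without young replicate 1 were added after seeing the data.

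Coordinates, exon lengths and overlaps came from GENCODE M21 on GRCm38, which holds all 45 members. Of these, 9 are overlapped on the other strand and 7 on their own strand, and 12 share over 5% of the 50-base stretches of their longest transcript with another gene (Itgam, Itgax, Lyz2, Fcgr2b, Fcgr3, Cbr2, Spp1, Ly6c2, Ms4a6c, Clec10a, Mgl2 and Chil3), where counts are less certain. At these depths 3 counts is the smallest number told from 0, for counting error only. Promoters came from RefSeq on GRCm38.p6, and the motifs were chosen after the values were known.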

Additional observations from a re-analysis of the deposited data

How the results depend on the processing

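No member and no gene was called by any edgeR fit (0 genes), over 3 other scalings, 2 other filters, the fit without muscle and mitochondrial genes, the replicate block, the crossed block and each library left out. With the replicate number as a block, 5 members and 1346 of all genes had an unadjusted p under 0.05, and with the crossed block 10 members and 2494 genes, against 7 and 2371. The deviations of same-numbered libraries correlated at -0.482, which in a design of 2 libraries per age goes with 0.482 for the crossed pairs (aged 1 with young 2, aged 2 with young 1); the titles number these pairs next to each other, and no label says that they share a batch. DESeq2 called 4 members and 865 genes, and 4 members and 766 genes without young replicate 1; the cause of the difference from edgeR was not tested. Scaling by total counts only moved the log2 fold change of all genes by a median of -0.18. Under it Cd14 turned to -0.0862, F13a1 to -0.11, Cx3cr1 to -0.18 and Clec4e to -0.12, and Cx3cr1 was at -0.0113 with upper quartile scaling and -0.0023 with no filter.

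With each library left out in turn, 23 of the 44 members kept their direction and 21 did not. The ranges of those that did not were -1.03 to 0.57 for Itgax, -1.95 to 1.07 for Lyz2, -0.43 to 0.91 for Cd14, -0.67 to 0.16 for Fcgr2b, -0.84 to 0.53 for Tyrobp, -1.26 to 0.62 for Aif1, -0.0512 to 0.52 for Mertk, -3.50 to 0.17 for Marco, -0.11 to 0.87 for Cd163, -0.22 to 0.64 for Lyve1, -0.32 to 0.65 for F13a1, -0.0309 to 0.47 for Siglec1, -0.43 to 0.43 for Cd9, -1.19 to 0.18 for Spp1, -0.20 to 0.13 for Ccr2, -0.43 to 0.59 for Cx3cr1, -3.33 to 2.58 for Ly6c2, -0.87 to 0.52 for Ms4a6c, -0.20 to 0.84 for Clec10a, -0.12 to 1.02 for Retnla and -0.56 to 0.48 for Clec4e. The median of the monocyte genes ran from -0.87 to 0.52 and of the resident genes from 0.151 to 0.6539. For the lipid-associated genes it ran from -0.0803 to 0.4251 and for inflammatory activation from -0.0471 to 0.3704. For alternative activation it ran from 0.9065 to 1.298, and both ends are the values of Mgl2 alone. Clec10a and Retnla of that state changed direction. With 2 libraries per age, a fit without 1 of them takes the lone library to vary like the others.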

Other observations

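Ratios between counts of related genes in a library showed which pairs kept step. C1qa and C1qc, which encode chains of complement C1q together with C1qb, stood at 0.972 to 1.06 and 0.858 to 0.925 of the C1qb counts in all 4 libraries. C1qa itself was at 29.8 and 43.4 CPM in aged and 32.7 and 16.8 CPM in young MFP, with young replicate 1 inside the aged values. Other pairs did not keep step. Lyz2 stood at 6.46 times the counts of Csf1r in young replicate 1 and at 0.942 to 1.66 times in the other libraries. Timd4 stood at 0.334 of the Mrc1 counts there and at 0.00814 to 0.0241 elsewhere. Ly6c2 stood at 1.61 times the counts of Ccr2 in young replicate 1, at 0.0328 in young replicate 2 and at 0.0998 and 0.254 in aged MFP. Lyz1, the paralog that shares sequence with Lyz2, had 731 counts in young replicate 1 and 103 to 232 elsewhere. Ly6c1, the paralog of Ly6c2, was lower in both young libraries, with 2505 and 2832 counts against 4766 and 4469 in aged MFP.

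The ratio of Gpnmb to Cd68 counts was 1.00 and 0.648 in aged MFP against 0.145 and 0.519 in young replicates 1 and 2, and that of Mgl2 to Clec10a 1.40 and 1.23 against 0.961 and 0.613, with no overlap between the ages for either. Arg1 stood at 0.434 and 1.37 of the Nos2 counts in aged and 0.108 and 0.264 in young MFP, again with no overlap. These ratios were chosen after the members' values were seen. Gpnmb, Mgl2 and Arg1 already had both aged libraries above both young ones, so the lack of overlap largely repeats their values. Of all genes, 23.3% had both aged libraries above both young ones.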
